A study of Danio rerio with 16 samples.

Results

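Primordial germ cells (PGCs), the precursors of eggs and sperm, and somatic cells were profiled by RNA-seq in zebrafish, and 9 genes of the early mesoderm, endoderm and organizer are described here in both. The genes were chosen by identifier for their known roles, with no threshold on measured values, at a time when earlier results of these data were known. The mesoderm genes were tbxta (ENSDARG00000101576), tbx16 (ENSDARG00000007329) and eve1 (ENSDARG00000056012). The organizer genes were noto (ENSDARG00000021201), gsc (ENSDARG00000059073) and chrd (ENSDARG00000006110). The endoderm genes were gata5 (ENSDARG00000017821), sox32 (ENSDARG00000100591) and sox17 (ENSDARG00000101717). They are 9 of the 34289 genes in the table, and all 9 were among the 20536 genes that passed the filter on low counts. Cells were sorted by fluorescence from embryos of the kop-EGFP-F-nos3'UTR line at 4, 7, 24 and 36 hours post fertilisation (hpf). PGC and soma came from embryos with the same transgene, in which the kop promoter drives a membrane-bound EGFP that the nos3 3'UTR keeps in PGCs, beside a cry:DsRed marker. Embryos kept beyond 24 hpf were raised in phenylthiourea, which blocks pigment, so the 36 hpf groups of both cell types differ from the earlier ones in that as well as in age. Each of the 8 groups had 2 libraries, and soma is a mixture of embryonic cell types.

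During gastrulation, signals of the Nodal family turn cells at the margin of the embryo into mesoderm and endoderm. On the dorsal side the organizer forms, a region that secretes antagonists of BMP signals and so patterns the embryo from back to belly. The T-box factors encoded by tbxta and tbx16 act in the formation of notochord and trunk mesoderm, and sox32 is the factor that zebrafish endoderm needs for sox17 to be expressed. In zebrafish, PGCs are set aside by maternal germ plasm rather than by such signals. What these libraries allow is a comparison of germ layer transcripts between bulk sorts of PGCs and of soma. They do not separate the RNA of PGCs from that of other cells in a sort.

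The libraries held between 2825775 and 15633266 expected counts, with fewer at 4 hpf (2825775 to 4674227) and 7 hpf (3489143 to 7076558) than at 24 hpf (8669138 to 10785003) and 36 hpf (8335252 to 15633266). Levels are given as CPM, counts scaled to a common library size by TMM, and 3 counts, taken as the floor of detection, correspond to between 0.182 and 0.719 CPM. Of 5 germ cell markers (nanos3, dnd1, tdrd7a, ddx4 and dazl), the summed level in PGCs was 5620 and 7914 CPM at 4 hpf, 5040 and 6872 CPM at 7 hpf, 743 and 572 CPM at 24 hpf, and 934 and 2196 CPM at 36 hpf. In soma the sum was at most 205 CPM at 4 hpf, 98.1 CPM at 7 hpf, 12.2 CPM at 24 hpf and 5.19 CPM at 36 hpf, so the labels held in every library. Markers of other cell types were not low in every PGC library. Of 3 nerve markers (elavl3, sox2 and neurog1), the sum was 304 and 249 CPM in PGCs at 24 hpf, against 284 and 321 CPM in soma. The muscle gene myod1 had 59.8 and 108 CPM in PGCs at 24 hpf, against 49.1 and 64.2 CPM in soma. The 3 skin keratins krt4, cyt1 and krt5 summed to 4997 and 2634 CPM in PGCs at 7 hpf, against 353 and 1221 CPM in soma. At 24 hpf they summed to 3794 and 10332 CPM in PGCs, against 10179 and 10817 CPM in soma. The 2 blood markers (gata1a and tal1) were lower in PGCs at 24 hpf, with 17.2 and 13.7 CPM, against 50.0 and 34.9 CPM in soma. The part of other cells in the levels of the 9 genes in PGC libraries was not tested. In bulk libraries, fewer cells of a type and less RNA per cell cannot be told apart.

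**Figure D1:**
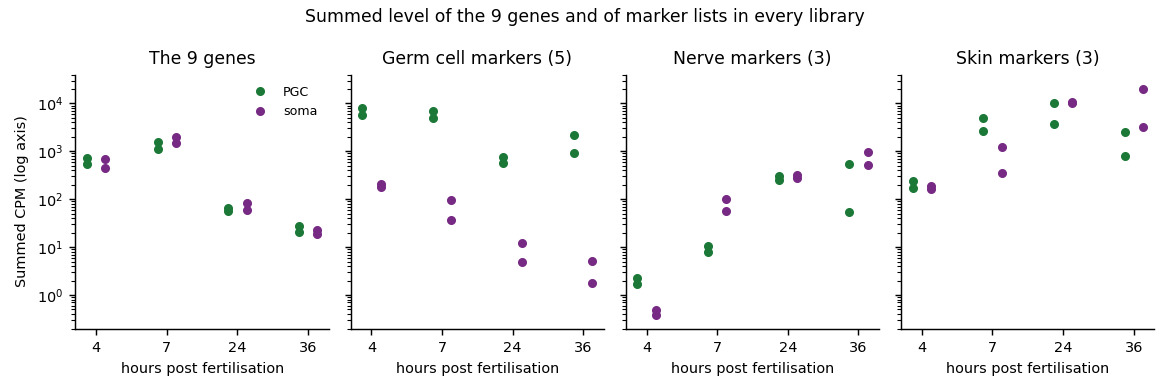
Summed CPM (log axis) of the 9 genes, of 5 germ cell markers, of 3 nerve markers and of 3 skin markers against stage in hpf, with 1 point per library (PGC green, soma purple). The sum of the 9 genes overlaps between PGC and soma libraries at every stage, while some of the genes taken singly do not. Germ cell markers stand apart, and nerve markers meet at 24 hpf (304 and 249 CPM in PGCs, 284 and 321 CPM in soma).

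Every one of the 9 genes had its highest library and its highest group mean at 7 hpf, counting the groups of both cell types. Summed over the 9 genes, PGCs held 549 and 714 CPM at 4 hpf, 1579 and 1103 CPM at 7 hpf, 65.4 and 57.9 CPM at 24 hpf, and 20.5 and 28.0 CPM at 36 hpf. Soma held 438 and 688 CPM at 4 hpf, 1971 and 1522 CPM at 7 hpf, 83.6 and 60.3 CPM at 24 hpf, and 18.9 and 22.4 CPM at 36 hpf. The sums, to which tbx16, chrd and tbxta gave most at 4 and 7 hpf, were highest at 7 hpf in both cell types and far lower by 24 hpf. Not every gene followed the sum in PGCs, where noto averaged 14.8 CPM at 7 hpf and 20.7 CPM at 4 hpf, and gsc 13.2 CPM at 7 hpf and 22.2 CPM at 4 hpf. For 8 of the 9 genes the highest group mean was that of soma at 7 hpf, and tbx16 was the exception.

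The mesoderm gene tbxta is the zebrafish Brachyury gene, a T-box factor of notochord and tailbud. In PGCs, tbxta had 37.4 and 42.6 CPM at 4 hpf, 330.3 and 226 CPM at 7 hpf, 39.2 and 38.9 CPM at 24 hpf, and 2.67 and 6.82 CPM at 36 hpf. In soma, tbxta had 19.4 and 74.0 CPM at 4 hpf, 515 and 272 CPM at 7 hpf, 44.0 and 38.6 CPM at 24 hpf, and 0.713 and 6.65 CPM at 36 hpf. PGC and soma libraries overlapped at each of the 4 stages, and the 24 hpf libraries of both lay within the range of the 4 hpf soma libraries. The order of the group means ran from soma and PGCs at 7 hpf, through the 4 groups of 4 and 24 hpf, which overlap their neighbours, to PGCs and soma at 36 hpf.

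The T-box gene tbx16, which trunk mesoderm precursors need to leave the margin, was already abundant at 4 hpf. In PGCs, tbx16 had 282 and 389.9 CPM at 4 hpf, 584 and 572 CPM at 7 hpf, 7.49 and 3.11 CPM at 24 hpf, and 0.425 and 3.37 CPM at 36 hpf. In soma, tbx16 had 276 and 440.3 CPM at 4 hpf, 592 and 334 CPM at 7 hpf, 12.3 and 4.76 CPM at 24 hpf, and 2.14 and 2.04 CPM at 36 hpf. The groups of 4 and 7 hpf stood far above all those of 24 and 36 hpf, and PGCs and soma overlapped at each stage. The homeobox gene eve1, a factor of ventral and posterior mesoderm, was low except at 7 hpf. In PGCs, eve1 had 0.756 and 3.32 CPM at 4 hpf, 48.9 and 33.6 CPM at 7 hpf, 3.19 and 0.283 CPM at 24 hpf, and 0 and 0.30 CPM at 36 hpf. In soma, eve1 had 1.92 and 8.72 CPM at 4 hpf, 91.3 and 59.7 CPM at 7 hpf, 6.22 and 2.06 CPM at 24 hpf, and 0.611 and 0.407 CPM at 36 hpf. At 7 hpf both soma libraries lay above both PGC libraries for eve1, and the same held at 36 hpf, where the counts were only 0 and 4 in PGCs and 6 and 3 in soma.

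The organizer gene chrd encodes Chordin, a secreted antagonist that binds BMP ligands. In PGCs, chrd had 179.9 and 227 CPM at 4 hpf, 465 and 227 CPM at 7 hpf, 6.51 and 4.67 CPM at 24 hpf, and 5.10 and 9.07 CPM at 36 hpf. In soma, chrd had 104 and 127 CPM at 4 hpf, 609 and 708 CPM at 7 hpf, 4.84 and 5.24 CPM at 24 hpf, and 1.43 and 5.30 CPM at 36 hpf. Both PGC libraries were above both soma libraries at 4 hpf and below them at 7 hpf. At 24 and 36 hpf the 2 cell types overlapped.

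The homeobox gene noto (floating head), which notochord needs, was close between the cell types at 4 hpf. In PGCs, noto had 19.5 and 21.9 CPM at 4 hpf, 21.4 and 8.22 CPM at 7 hpf, 0.369 and 0 CPM at 24 hpf, and 0.243 and 0 CPM at 36 hpf. In soma, noto had 18.5 and 19.2 CPM at 4 hpf, 26.9 and 20.3 CPM at 7 hpf, 0.691 and 0.159 CPM at 24 hpf, and 0 CPM in both libraries at 36 hpf. From 24 hpf on no library held more than 5 counts of noto, so no difference between the cell types was detectable there. The gene gsc (goosecoid), a homeobox repressor of the organizer, was the only one of the 9 whose 36 hpf libraries all lay above its 24 hpf libraries in both cell types. Its counts at 24 hpf were only 0 and 6 in PGCs and 0 and 1 in soma. Between these stages 51.0% of all genes in PGCs and 46.2% in soma had groups that did not overlap, counting both directions. In PGCs, gsc had 24.4 and 20.1 CPM at 4 hpf, 20.2 and 6.34 CPM at 7 hpf, 0 and 0.849 CPM at 24 hpf, and 1.34 and 4.50 CPM at 36 hpf. In soma, gsc had 13.2 and 13.6 CPM at 4 hpf, 25.6 and 24.5 CPM at 7 hpf, 0 and 0.159 CPM at 24 hpf, and 3.36 and 0.951 CPM at 36 hpf. As with chrd, both PGC libraries stood above soma at 4 hpf and below it at 7 hpf.

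Of the endoderm genes, gata5, a zinc finger factor of endoderm and heart, was the one that stayed detected at every stage. In PGCs, gata5 had 3.40 and 4.14 CPM at 4 hpf, 43.6 and 16.2 CPM at 7 hpf, 8.23 and 10.1 CPM at 24 hpf, and 9.96 and 2.17 CPM at 36 hpf. In soma, gata5 had 2.64 and 3.10 CPM at 4 hpf, 50.1 and 49.4 CPM at 7 hpf, 14.8 and 9.37 CPM at 24 hpf, and 10.6 and 6.52 CPM at 36 hpf. The soma libraries of 7 hpf lay above both PGC libraries, while those of 24 and 36 hpf overlapped with them.

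The Sox factor gene sox32 (casanova) was seen at 7 hpf and little before. In PGCs, sox32 had 1.51 and 4.64 CPM at 4 hpf, 43.3 and 10.1 CPM at 7 hpf, 0 CPM in both libraries at 24 hpf, and 0.607 and 1.42 CPM at 36 hpf. In soma, sox32 had 2.16 and 0.969 CPM at 4 hpf, 37.0 and 23.8 CPM at 7 hpf, 0 CPM in both libraries at 24 hpf, and 0.102 and 0 CPM at 36 hpf. The 36 hpf libraries of PGCs held 10 and 19 counts of sox32, against 1 and 0 in soma. Its target sox17 was at or under 3 counts in every library of 4 hpf. In PGCs, sox17 had 0.189 and 0 CPM at 4 hpf, 21.6 and 3.05 CPM at 7 hpf, 0.369 and 0 CPM at 24 hpf, and 0.121 and 0.30 CPM at 36 hpf. In soma, sox17 had 0 and 0.581 CPM at 4 hpf, 24.5 and 28.9 CPM at 7 hpf, 0.829 and 0 CPM at 24 hpf, and 0 and 0.543 CPM at 36 hpf. The signal of sox17 was in effect that of 7 hpf, where both soma libraries were above both PGC libraries.

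**Figure D2:**
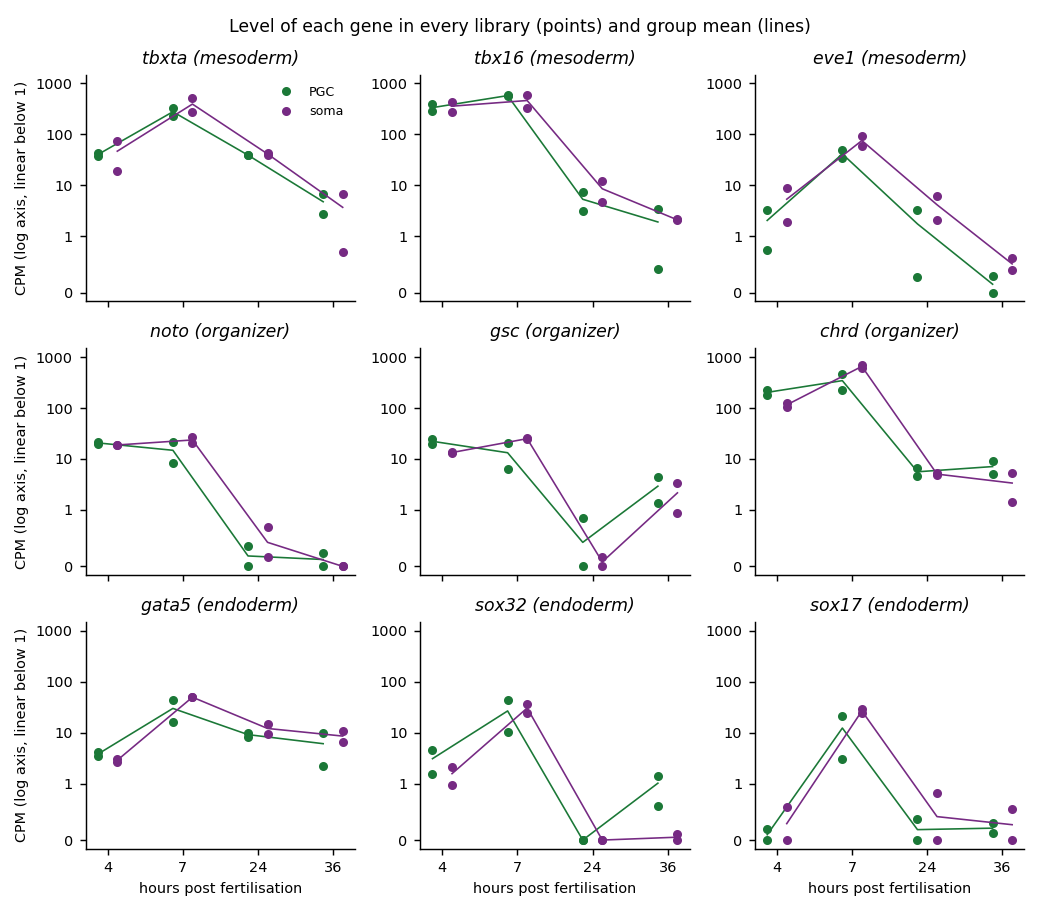
CPM (log axis, linear below 1) of each of the 9 genes in every library against stage in hpf, with PGC points (green) left of soma points (purple) and lines through the group means. Each gene has its highest group mean at 7 hpf when both cell types are counted, but in PGCs alone the means of noto and gsc are higher at 4 hpf, and sox32 is at 0 CPM in all 4 libraries of 24 hpf.

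Between 4 and 7 hpf, 5 of the 9 genes rose in PGCs (adjusted p under 0.05 and a log2 fold change past 1.5, in edgeR's quasi-likelihood test), against a background of 5.03% of all genes called higher and 2.08% called lower. The log2 fold change of 7 over 4 hpf in PGCs was 2.80 ± 0.75 for tbxta (SE, adjusted p = 0.0327), 4.31 ± 1.04 for eve1 (adjusted p = 0.0217), 2.98 ± 0.68 for gata5 (adjusted p = 0.0160) and 3.10 ± 0.88 for sox32 (adjusted p = 0.0493). The fifth, sox17, was at least 5.38-fold higher at 7 hpf in PGCs (the lower 7 hpf library against 3 counts at 4 hpf, adjusted p = 0.0307). All 3 endoderm genes were thus among those that rose in PGCs, and none of the 3 organizer genes was. The log2 fold changes of the other 4 in PGCs were 0.78 for tbx16, -0.48 for noto, -0.74 for gsc and 0.77 for chrd. The PGC calls depend on single libraries, since no member was called once PGC 4 hpf replicate 1, PGC 4 hpf replicate 2 or PGC 7 hpf replicate 1 was left out, and 4 were without PGC 7 hpf replicate 2. Each such fit compares a single library with 2, and over all genes it called 264 to 684 higher, against 1033 with all libraries.

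In soma, 6 of the 9 genes rose between 4 and 7 hpf, namely the same 5 and chrd, where 9.29% of all genes were called higher and 9.37% lower. The log2 fold change of 7 over 4 hpf in soma was 3.07 ± 0.75 for tbxta (SE, adjusted p = 0.00933), 3.81 ± 0.99 for eve1 (adjusted p = 0.0131), 2.51 ± 0.49 for chrd (adjusted p = 0.00242), 4.10 ± 0.72 for gata5 (adjusted p = 0.00122) and 4.29 ± 0.96 for sox32 (adjusted p = 0.00689). For sox17 the level at 7 hpf in soma was at least 34.0-fold higher (adjusted p = 0.0118). The soma calls of tbxta, eve1, sox32 and sox17 were each lost when some single soma library was left out, and those of chrd and gata5 were not. The median log2 fold change, with sox17 at its bound, was 2.43 in PGCs and 3.07 in soma, where the median of all genes was 0 in both. That chrd passed the threshold in soma and not in PGCs does not show a difference, and the difference itself (PGC change minus soma change) was -1.74 ± 0.66 on the log2 scale, with an adjusted p of 0.367. No member was called for that difference, 1 (chrd) had an unadjusted p under 0.05 (0.0194), and 0% of all genes were called. DESeq2 called no member for it either.

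Between 7 and 24 hpf most of the genes fell in both cell types. In PGCs 8 of the 9 were called lower at 24 hpf, against 5.97% of all genes called lower and 18.2% called higher. In soma all 9 were called lower, against 8.76% of all genes called lower and 22.1% called higher. With genes at 3 counts or under set to their bounds, the median log2 fold change of 24 over 7 hpf was -4.53 in PGCs and -5.68 in soma, while the median of all genes was 0.43 in PGCs and 0.49 in soma.

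Among the genes with a measured fold, tbx16 fell the most in PGCs and chrd in soma. The log2 fold change of tbx16 was -6.76 ± 0.81 in PGCs (SE, adjusted p = 0.000127) and -5.75 ± 0.77 in soma (adjusted p = 0.000164). For chrd it was -5.94 ± 0.58 in PGCs (adjusted p = 5.33e-05) and -7.03 ± 0.61 in soma (adjusted p = 2.42e-05). The transcripts of these 2 genes at 24 hpf came to between 0.00765 and 0.0184 times their mean at 7 hpf. For tbxta the change was -2.83 ± 0.75 in PGCs (adjusted p = 0.0117) and -3.25 ± 0.76 in soma (adjusted p = 0.00468). The tbxta call in PGCs was lost without PGC 7 hpf replicate 1, PGC 24 hpf replicate 1 or PGC 24 hpf replicate 2 (adjusted p up to 0.0771). For eve1 it was -4.53 ± 1.04 in PGCs (adjusted p = 0.00561) and -4.17 ± 1.01 in soma (adjusted p = 0.00565). The eve1 call in soma was lost when a single soma library was left out, and PGC 24 hpf replicate 2 held only 2 counts of eve1.

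Several genes reached the floor by 24 hpf, so only a bound holds. In PGCs noto was at least 19.4-fold lower, sox32 at least 23.8-fold lower and sox17 at least 7.19-fold lower at 24 hpf. The sox17 call in PGCs was lost without PGC 7 hpf replicate 1 or PGC 24 hpf replicate 2 (adjusted p up to 0.146). In soma gsc was at least 51.4-fold lower and sox32 at least 50.0-fold lower. The log2 fold change of sox17 in soma was -5.90 ± 1.53 (SE, adjusted p = 0.00854), a call that was lost when a single soma library was left out. The smallest change was that of gata5, with -1.71 ± 0.64 in PGCs (adjusted p = 0.0560), which missed the threshold, and -2.04 ± 0.64 in soma (adjusted p = 0.0226), a call that was lost when any of the 4 soma libraries compared was left out. Of 10 alternatives that kept 2 libraries a group, 36 against 7 hpf (below) included, 7 called gata5 lower in PGCs. No member was called for the difference between the 2 cell types in the change from 7 to 24 hpf, against 0.131% of all genes. None had an unadjusted p under 0.05 for it, and DESeq2 called none. Nerve and muscle markers, though not blood markers, reached the levels of soma in PGCs at 24 hpf. For that reason 36 hpf was also set against 7 hpf without the 24 hpf libraries, a choice made after the data were seen. PGC 36 hpf replicate 1 had a nerve marker sum of 552 CPM, above both PGC libraries of 24 hpf, so this choice does not remove such libraries. At 36 hpf 8 of the 9 genes were called lower than at 7 hpf in PGCs, and all 9 were in soma. The exception in PGCs was gsc, whose 36 hpf libraries (1.34 and 4.50 CPM) still lay below those of 7 hpf (20.2 and 6.34 CPM). Of 18583 genes tested without the 24 hpf libraries, 1393 were called lower and 2500 higher in PGCs. In soma 1551 were called lower and 4087 higher.

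Between 24 and 36 hpf no member was called in either cell type, where 0.185% of all genes were called higher and 1.69% lower in PGCs, and 0% were called higher and 0% lower in soma. At an unadjusted p under 0.05 there were 5 members in PGCs and 5 in soma, but the share of all genes at that threshold was not counted. In PGCs tbxta, tbx16 and eve1 were lower and gsc and sox32 higher, where sox32 held no count at 24 hpf. In soma tbxta, tbx16, eve1 and noto were lower and gsc higher. For noto the soma counts were 5 and 1 at 24 hpf and 0 in both libraries at 36 hpf, so its fall was not measurable. For gsc they were 0 and 1 at 24 hpf, so only a bound holds, at least 1.995-fold higher at 36 hpf. DESeq2 called tbxta lower and sox32 higher in PGCs, where it called 191 of all genes higher and 704 lower. In soma DESeq2 called tbxta lower, with 86 of all genes higher and 224 lower. For tbxta the log2 fold change of 36 over 24 hpf was -3.04 ± 0.77 in PGCs (SE, adjusted p = 0.0597) and -3.52 ± 0.80 in soma (adjusted p = 0.161). The stages did not overlap for tbxta in either cell type, where 51.0% of all genes in PGCs and 46.2% in soma did not. The germ cell markers were at 934 and 2196 CPM in PGCs at 36 hpf, against 743 and 572 CPM at 24 hpf. No member was called for the difference between the cell types in this change, none had an unadjusted p under 0.05, DESeq2 called none, and 0% of all genes were called.

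**Figure D3:**
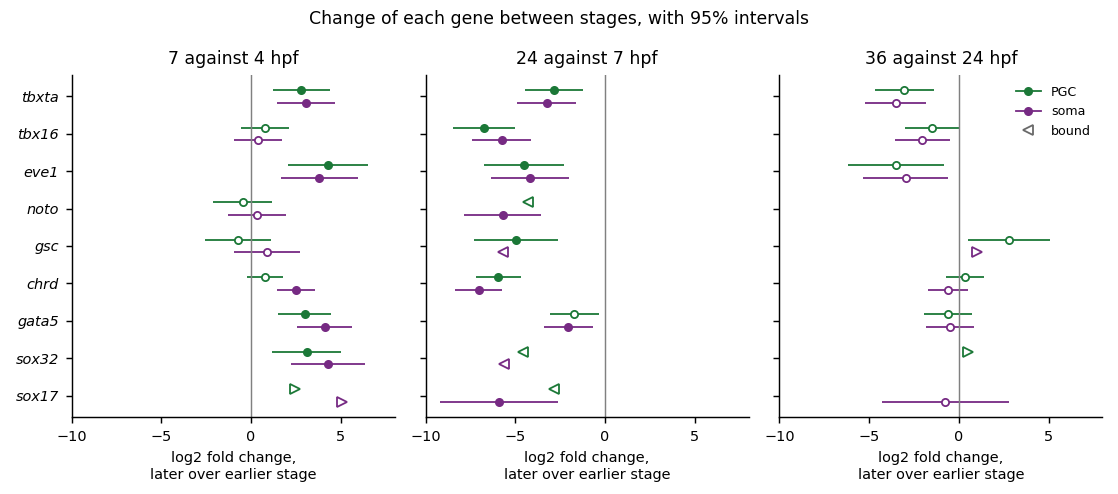
Log2 fold change of the later over the earlier stage for each of the 9 genes in PGCs (green, above) and soma (purple, below), with 95% intervals; filled points passed the test, and open triangles are bounds for genes with a group at 3 counts or under (genes with no fold are left out). From 4 to 7 hpf the called genes lie to the right, and from 7 to 24 hpf all points and bounds lie to the left of 0.

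Set against soma of the same stage, PGCs did not differ in any of the 9 genes by the test, at any of the 4 stages. At 4 hpf no member was called, against 0.0438% of all genes, and the lowest adjusted p was 0.945. At 7 hpf no member was called, against 3.16% of all genes called higher and 0.813% called lower in PGCs, and the lowest adjusted p was 0.258. At 24 hpf no member was called, against 0.039% of all genes, and at 36 hpf none was, against 0.521% of all genes. No member had an unadjusted p under 0.05 at 4, 7 or 24 hpf, and 2 had at 36 hpf (sox32 and chrd). The share of all genes at that threshold was not counted. DESeq2 called no member at any of these stages. Of the 5 germ cell markers, 4 passed the same test at 4 and 24 hpf, with dazl as the exception. At 4 hpf dazl missed the threshold (adjusted p = 0.128) with 125 and 126 CPM in PGCs, against 5.99 and 6.59 CPM in soma. All 5 passed at 7 and 36 hpf, and the smallest log2 fold change of PGCs over soma was 4.80 for ddx4 at 7 hpf. In soma at 36 hpf dnd1 (3 and 0 counts) and dazl (0 and 1 counts) were at the floor, so no measured fold holds for them.

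At 7 hpf, when the genes were highest, most values were lower in PGCs without passing the test. The log2 fold change of PGCs over soma at 7 hpf was -0.93 ± 0.47 for chrd (SE), -1.11 ± 1.19 for sox17, -0.91 ± 0.85 for gsc, -0.87 ± 0.88 for eve1, -0.73 ± 0.62 for gata5, -0.67 ± 0.76 for noto, -0.50 ± 0.69 for tbxta and -0.19 ± 0.80 for sox32. For tbx16 it was 0.32 ± 0.62. The value was negative for 8 of the 9, with a median of -0.73, where the median of all genes was 0. Both PGC libraries lay below both soma libraries for 5 of the 9 (eve1, gsc, chrd, gata5 and sox17), while 46.7% of all genes had groups that did not overlap at 7 hpf in either direction. All 9 of the 95% intervals included 0, and 8 of them reached below -1.5, so these intervals allow a lower level in PGCs past the fold threshold. For chrd the interval ran from -1.93 to 0.07 and for tbx16 from -1.01 to 1.65. The signs for tbxta, tbx16 and sox32 each turned when a single library was left out, tbxta to 0.034 without soma 7 hpf replicate 1, tbx16 to -0.028 without soma 7 hpf replicate 2, and sox32 to 0.51 without PGC 7 hpf replicate 2 or 0.17 without soma 7 hpf replicate 1.

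The 2 PGC libraries of 7 hpf were unlike in these genes. Replicate 1 was above replicate 2 for 9 of the 9 genes, by a median of 1.28 on the scale of log2(CPM + 1), with a range of 0.03 for tbx16 to 2.48 for sox17. The median difference of all genes between these libraries was 0. The 3 endoderm genes summed to 108 CPM in replicate 1 and 29.4 CPM in replicate 2 of PGCs at 7 hpf, while soma had 112 and 102 CPM. The 3 organizer genes summed to 507 and 241 CPM in PGCs at 7 hpf, against 662 and 753 CPM in soma. The 3 mesoderm genes summed to 964 and 832 CPM in PGCs, against 1198 and 666 CPM in soma, so for them the cell types overlapped. Replicate 1 also had the lower germ cell marker sum (5040 CPM, against 6872 CPM in replicate 2), mostly through tdrd7a (2061 CPM, against 3539 CPM), while nanos3 was at 711 CPM in both and dazl was higher in replicate 1 (115 CPM, against 45.3 CPM). Replicate 1 had the higher sum of skin keratins (4997 CPM, against 2634 CPM in replicate 2). The nerve list, whose signal in soma at 7 hpf was mostly sox2, moved the other way, with 7.89 CPM in replicate 1 and 10.8 CPM in replicate 2 of PGCs, against 100.3 and 56.7 CPM in soma. Blood markers were at or under 0.805 CPM in every library of 7 hpf. The part of these cell types in the difference between the PGC libraries was not tested.

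At 4 hpf the PGC libraries were both above those of soma for 4 of the 9 genes (noto, gsc, chrd and gata5). Counting both directions, 27.7% of all genes had groups that did not overlap. The log2 fold change of PGCs over soma was 0.14 ± 0.76 for noto (SE), 0.73 ± 0.85 for gsc, 0.82 ± 0.47 for chrd and 0.39 ± 0.70 for gata5. For chrd the 95% interval ran from -0.19 to 1.82. Both cell types at 4 hpf had little nerve signal, 1.70 and 2.32 CPM in PGCs and 0.479 and 0.388 CPM in soma, and myod1, gata1a and tal1 were at 0 in all 4 libraries.

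At 24 hpf none of the 9 genes had groups that did not overlap, where 36.1% of all genes did. The values of the 5 genes above the floor in both cell types ran from -1.23 for eve1 to 0.15 for chrd. At 36 hpf the groups of eve1 and sox32 did not overlap, where 53.1% of all genes had groups that did not. In PGCs sox32 was at least 1.49-fold higher than in soma (unadjusted p = 0.0128, adjusted p = 0.217), a bound that rests on 10 and 19 counts in PGCs, against 1 and 0 in soma. For chrd the log2 fold change of PGCs over soma at 36 hpf was 1.1 ± 0.51 (SE, unadjusted p = 0.0499, adjusted p = 0.316). Nerve markers at 36 hpf summed to 552 and 53.3 CPM in PGCs, against 963 and 518 CPM in soma, so the PGC libraries differed from each other by more in these markers than the soma libraries did.

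**Figure D4:**
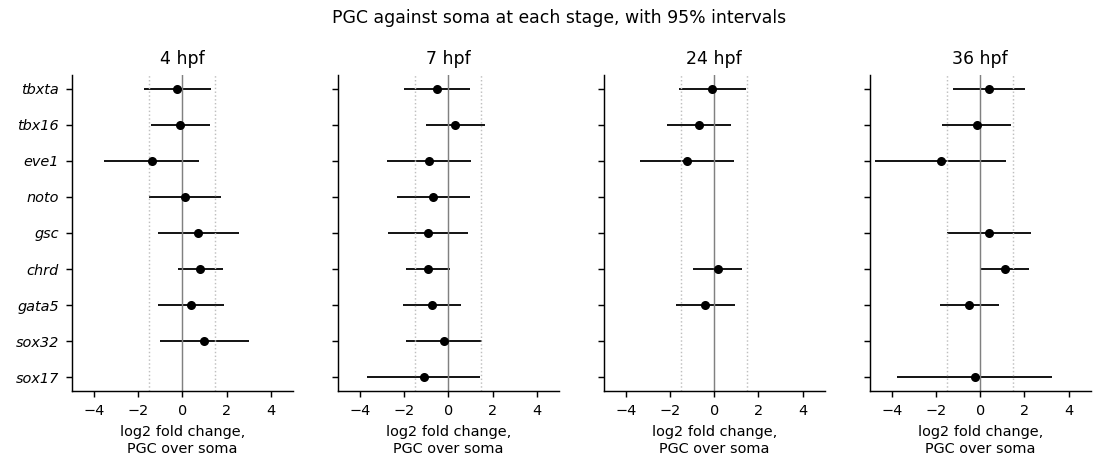
Log2 fold change of PGC over soma for each of the 9 genes at 4, 7, 24 and 36 hpf, with 95% intervals; dotted lines mark the fold threshold of 1.5 and genes with a group at 3 counts or under are left out. At 7 hpf 8 of the 9 points lie left of 0 and all 9 intervals include 0.

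Apart from the CPM sums above, in which long transcripts weigh more, levels of different genes were compared per kilobase of effective length. This is the length of transcript that reads could come from. At 7 hpf tbxta, chrd and tbx16 held 78.8% and 85.8% of the summed length-scaled level of the 9 genes in PGCs, against 78.0% and 75.8% in soma. The length-scaled level of tbxta at 7 hpf was 249.7 and 174 CPM per kilobase in PGCs, against 386 and 186 CPM per kilobase in soma. For chrd it was 143 and 71.7 CPM per kilobase in PGCs, against 189.9 and 221 CPM per kilobase in soma. For tbx16, whose transcript is long, it was 124 and 121 CPM per kilobase in PGCs, against 126 and 71.1 CPM per kilobase in soma. Within PGCs chrd and tbx16 overlapped and tbxta lay above both, while in soma tbxta and chrd overlapped and tbx16 lay below both. At the low end stood sox17, with 8.55 and 1.2 CPM per kilobase in PGCs and 9.78 and 11.5 CPM per kilobase in soma. At 4 hpf the order differed, with tbx16 at 59.8 and 82.9 CPM per kilobase and chrd at 53.3 and 68.5 CPM per kilobase in PGCs, above noto at 25.9 and 29.3, tbxta at 21.2 and 27.7 and gsc at 23.5 and 19.4 CPM per kilobase, each of which overlapped its neighbour. In soma at 4 hpf tbx16 had 58.5 and 93.3 CPM per kilobase, chrd 29.5 and 37.6 CPM per kilobase and tbxta 15.5 and 52.2 CPM per kilobase, so tbxta there overlapped chrd. The T-box and organizer genes thus made up most of the signal at 4 hpf, and the endoderm genes gata5, sox32 and sox17 were each at or below 2.01 CPM per kilobase in all 4 libraries of that stage.

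**Figure D5:**
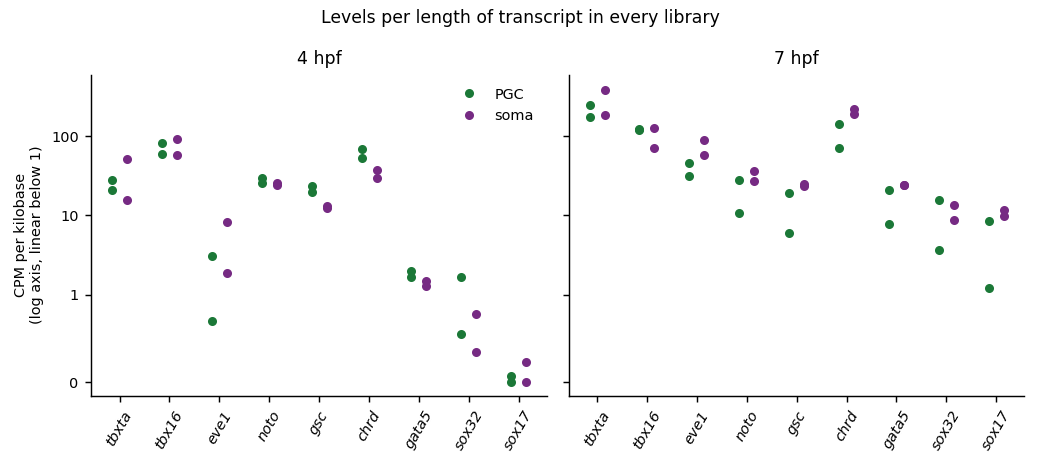
Length-scaled level (CPM per kilobase of effective length, log axis that is linear below 1) of each of the 9 genes in every PGC (green, left) and soma (purple, right) library at 4 and 7 hpf. The endoderm genes are at or below 2.01 CPM per kilobase at 4 hpf, and tbxta, tbx16 and chrd lead at 7 hpf.

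Across the 16 libraries, the closest pairs were those among tbx16, noto and chrd. The Pearson correlation of log2(CPM + 1) was 0.97 between tbx16 and noto, 0.96 between noto and chrd, and 0.95 between tbx16 and chrd. Genes that were low at 4 hpf formed other close pairs, with 0.90 between eve1 and sox17 and 0.89 between sox32 and sox17. The lowest of the 36 pairs was that of gsc and gata5, with 0.15. These values describe 16 libraries that share stages and differ in depth. Against the mean standardised profile of the 9 genes, sox32 had 0.95, chrd 0.94 and gata5, which stayed on at 24 and 36 hpf, 0.62. A mean of at least 5 CPM in a group was reached by 16208 genes, the 9 included. The 3 others most like that profile were rbm38 (0.97), which encodes an RNA-binding protein, ndr2 (0.97), which encodes the Nodal ligand Cyclops, and c2h1orf35 (0.97). In PGCs, ndr2 had 2.46 and 0.995 CPM at 4 hpf, 27.2 and 9.63 CPM at 7 hpf, 0.737 and 0 CPM at 24 hpf, and 0.243 and 0 CPM at 36 hpf. In soma, ndr2 had 1.44 and 4.46 CPM at 4 hpf, 28.0 and 24.1 CPM at 7 hpf, and 0 CPM in all libraries of 24 and 36 hpf.

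Around these genes, 50 further symbols of the same pathways were listed, of which 40 were paired with 41 identifiers and 40 identifiers were tested. Between 4 and 7 hpf, 11 of the 40 rose and 1 (nanog) fell in PGCs, and 11 rose and 2 (nanog and gdf3) fell in soma. Of all genes 5.03% rose and 2.08% fell in PGCs, and 9.29% rose and 9.37% fell in soma. All 7 tested mesoderm genes of the list rose in PGCs, and 5 of the 7 did in soma. These counts do not show a difference between the cell types. For the difference in this change itself, 0 of the 7 were called, where 0% of all genes were. Among the 7 was cdx4, a caudal-type homeobox gene of the posterior body. In PGCs it had 169 and 192 CPM at 7 hpf and 0.756 and 7.63 CPM at 4 hpf. The T-box gene tbx16l had 74.5 and 48.9 CPM at 7 hpf and 0.189 and 2.82 CPM at 4 hpf in PGCs. The segmentation gene mespab had 23.5 and 11.0 CPM at 7 hpf and was at 0 CPM in both PGC libraries of 4 hpf. None of the 11 tested Nodal pathway genes passed the test as higher in either cell type, ndr2 included. The PGC count of 12 fell to between 2 and 10 when a library was left out, 2 without PGC 4 hpf replicate 1 and 3 without PGC 4 hpf replicate 2.

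Between 7 and 24 hpf, 25 of the 40 fell and 1 (foxa1) rose in PGCs, and 28 fell and 2 (foxa1 and tbx2a) rose in soma. Of all genes 5.97% fell and 18.2% rose in PGCs, and 8.76% fell and 22.1% rose in soma. All 7 tested genes listed under BMP (bmp4, bmp7a, admp, szl, vox, vent and ved) fell in both, as did 9 of the 11 of the Nodal pathway. The Nodal co-factor foxh1 had 1.35 and 0.708 CPM at 24 hpf and 114 and 115 CPM at 7 hpf in PGCs. The forkhead gene foxa1, a factor of gut endoderm, had 15.5 and 7.50 CPM at 24 hpf in PGCs, against 14.8 and 13.2 CPM in soma, and was at 0 CPM in both PGC libraries of 7 hpf. Between 24 and 36 hpf 3 of the 40 (lft1, wnt11f2 and foxd3) were called lower in PGCs, and none was called in soma. Of all genes 0.185% were called higher and 1.69% lower in PGCs, and 0% in either direction in soma. The PGC count of 3 fell or rose with the library left out, and the number called over all genes moved too.

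Against soma, 3 of the 40 differed at 7 hpf and 1 at 36 hpf, with 0 at 4 hpf and 0 at 24 hpf, where of all genes 3.16% were called higher and 0.813% lower at 7 hpf and 0.521% were called at 36 hpf. The BMP ligand gene bmp7a had 44.7 and 37.8 CPM in PGCs at 7 hpf, against 163 and 107 CPM in soma, a log2 fold change of -1.71 ± 0.44 (SE, adjusted p = 0.0414). The forkhead gene foxd3, expressed in the organizer and later in neural crest, had 13.7 and 6.58 CPM in PGCs at 7 hpf, against 52.8 and 39.4 CPM in soma, with -2.18 ± 0.43 (adjusted p = 0.0151). The T-box gene tbx2a had 2.10 and 10.6 CPM in PGCs at 7 hpf and 0 CPM in both soma libraries, which held no count of it (adjusted p = 0.0139). At 36 hpf nanog, a maternal pluripotency factor, had 3.70 and 7.87 CPM in PGCs, against 0.204 and 0.272 CPM in soma (adjusted p = 0.0122). Both soma values lay below the level of 3 counts in those libraries (0.305 and 0.407 CPM), so no measured fold is given. The genes tbx2a and nanog are on the study's own lists of genes high in PGCs, chosen on these libraries, so their direction is no independent evidence. These calls depend on single libraries. At 7 hpf none was called by limma on TPM, without PGC 7 hpf replicate 2 or without soma 7 hpf replicate 2, and 1 without soma 7 hpf replicate 1. At 36 hpf the number called also moved with the library left out, and so did the number called over all genes.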

How the data were processed

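RNA-seq libraries were made with the SMARTer stranded total RNA pico kit from PGCs and somatic cells sorted at 4, 7, 24 and 36 hpf, with 2 replicates of each (16 libraries). According to the study's methods, the authors trimmed reads with TrimGalore, aligned them to danRer10 with STAR and quantified genes with RSEM, which divides reads among genes that share sequence. The deposited expected counts (95.2% whole) were rounded to whole numbers, and 92 spike-in rows without counts were dropped. The deposited TPM values served only as an alternative, since 1 gene, 1.55 to 4.12 bases long by effective length, took 2.84% to 46.6% of a library's TPM. The deposited effective lengths in bases (RSEM) gave length-scaled levels.

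Genes were kept by edgeR's filterByExpr (default settings, with a minimum of 10 depth-scaled counts in 2 or more libraries and 15 counts over all), normalised by TMM and fitted over 8 groups (edgeR 4.0.16, glmQLFit and glmQLFTest, R 4.3.3). Benjamini-Hochberg adjustment ran over 20536 genes, and a gene was called at an adjusted p under 0.05 and a log2 fold change past 1.5. Standard errors are the log2 fold change over the root of the F statistic, with 95% intervals. Where a group held at most 3 counts per library, a fold is a bound against 3 counts, which covers counting error only. Reads carry no counted molecular identifiers. The study calls the replicates biologically independent; p-values measure the spread between these libraries. For soma 24 hpf replicate 1, one label names PGCs and its title and cell type name soma; it was used as soma.

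The members, the pathway list and the markers were chosen with earlier results of these data known. All 9 members are named. Symbols were paired with identifiers through a gene name table (26790 identifiers matched); 10 of 50 pathway symbols and 3 markers (mylpfa, acta1b and hbbe1.1) were not paired and are not analysed here, and wnt8a has 2 identifiers. The alternatives were DESeq2 1.42.0, no filter, a stricter filter (10 counts in both libraries of a group and a mean of 1 CPM), only the libraries compared, replicate numbers as blocks, effective-length offsets, limma (3.58.1) with TPM on the log2 scale after adding 1 or 0.1, and leaving out each library.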

Additional observations from a re-analysis of the deposited data

How the results depend on the processing

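No member was called between PGCs and soma at 4, 7 or 24 hpf, or for the difference between the cell types in any change, under any of the alternatives run. At 36 hpf, 1 member (sox32, higher in PGCs) was called with no filter on low counts. Under the other alternatives that left each group its 2 libraries, 0 were. With no filter, 507 of 27454 genes were called higher and 515 lower at 36 hpf, against 104 and 3 with the filter. From 4 to 7 hpf in PGCs the count of 5 was 2 with limma on log2(TPM + 1) without a filter, 3 without the 24 hpf libraries (an alternative chosen after seeing the data) and between 0 and 4 when a library was left out; in soma the count of 6 was between 3 and 6 when a library was left out. From 7 to 24 hpf the count was between 6 and 9 in PGCs and between 6 and 8 in soma when a library was left out, and stayed within 8 to 9 in PGCs and at 9 in soma under the others. From 24 to 36 hpf in PGCs the count of 0 was 4 with no filter, 2 with DESeq2, and 1 with only the libraries compared, with effective-length offsets and with limma on log2(TPM + 0.1). In soma it was 4 with no filter, 1 with DESeq2, 1 with limma on log2(TPM + 1), and between 0 and 1 when a library was left out. With no filter, 227 of 27454 genes were called higher and 993 lower in PGCs from 24 to 36 hpf. In soma 262 were called higher and 491 lower, in place of 0. In PGCs limma on log2(TPM + 0.1) called 470 of 18618 genes higher and 251 lower. In soma limma on log2(TPM + 1) called 106 higher and 219 lower. In PGCs from 24 to 36 hpf, 29 of 19079 genes were called higher and 455 lower with only the libraries compared. With effective-length offsets, 30 of 20520 were higher and 266 lower. From 4 to 7 hpf in PGCs, limma on log2(TPM + 1) without a filter called 356 of 27421 genes higher and 237 lower. Without the 24 hpf libraries, 706 of 18583 were higher and 325 lower. The edgeR test on all libraries called 1033 of 20536 higher and 428 lower. The cause of these shifts was not tested.

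With replicate numbers as a block across all stages, 1 member (tbxta) was called between 24 and 36 hpf in PGCs. Of all genes in PGCs 50 were called higher and 438 lower, against 38 and 347 without the block. In soma 5 were called higher and 88 lower in place of 0. The replicate block changed no other count of members by over 1.5 times. Same-numbered PGC and soma libraries deviated together with correlations between 0.10 at 7 hpf and 0.310 at 36 hpf, but with 2 pairs a stage the numbers were not taken as pairs. At 7 hpf the log2 fold change of PGCs over soma ran from -0.88 to 0.034 for tbxta, from -0.028 to 0.79 for tbx16 and from -1.59 to 0.51 for sox32 when a library was left out. Leaving out a library leaves a group with 1 library, which is assumed to vary like the other groups. Depth limits the genes near 3 counts, among them sox17 at 4 hpf and noto, gsc, sox32, sox17 and, in PGC replicate 2, eve1 at 24 hpf. At 36 hpf they include eve1, noto, sox17 and, in soma, sox32.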
